A study of Mus musculus with 21 samples.

Results

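The expression of 10 genes of eicosanoid metabolism, chosen by name among the 37734 genes in the data, was described in conventional dendritic cells (cDCs) of the thymus and spleen. They were Alox5, Alox5ap, Lta4h and Ltc4s of the leukotriene branch, Ptgs1, Ptgs2, Hpgds, Ptges and Ptges2 of the prostanoid branch, and Ptger4, a receptor for prostaglandin E2. The data were RNAseq libraries of cDCs from C57BL/6 mice (substrain C57Bl6/JRj in the study's methods, B6) aged 6 to 8 weeks, enriched on CD11c beads after enzymatic digestion and then FACS-sorted, with the cells of several mice pooled for each library. The labels name no mutation and no treatment in any group. Immature cells were sorted as negative for CCR7 and ESAM and mature cells as positive for both. The cDC1 comprised 5 libraries of immature splenic, 4 of immature thymic and 3 of mature thymic cells, and the cDC2 comprised 3 libraries of each of these. Mature splenic cells were not analysed here. The comparisons asked how these genes differed between mature and immature thymic cells, between thymic and splenic immature cells, and between the cDC1 and cDC2 subsets.

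Eicosanoids are short-range lipid signals made from arachidonate, a fatty acid that phospholipases release from membranes. In the leukotriene branch, the 5-lipoxygenase encoded by Alox5, helped by its activating protein encoded by Alox5ap, makes leukotriene A4. Lta4h then turns it into leukotriene B4, an attractant of leukocytes, and Ltc4s into leukotriene C4, the first of the cysteinyl leukotrienes. In the prostanoid branch, the cyclooxygenases Ptgs1 and Ptgs2 make prostaglandin H2, which Hpgds converts to prostaglandin D2 and Ptges or Ptges2 to prostaglandin E2. The receptor Ptger4 (EP4) binds prostaglandin E2 and raises cyclic AMP, and prostaglandin E2 is known to act on the migration of maturing dendritic cells.

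The libraries held 14266867 to 40119669 recovered reads, and the values are read counts normalized by the authors with DESeq2, here called normalized read counts. Immature splenic cDC1 replicates 4 and 5 came from 1 pool with the same index and lane, their reads differed little (chi-square over degrees of freedom 2.44, other pairs of the group 25.0 to 176), and they were averaged as 1 sample. Immature thymic cDC1 replicates 3 and 4 also shared pool, index and lane label, but differed more than the other pairs of their group (92.8 by the same measure, other pairs 22.8 to 86.1) and were kept as 2 samples. Replicate 1 of immature splenic cDC1 carried the same pool number as replicates 4 and 5, with another index and lane label, and was kept apart. This left 20 samples, and nothing in the labels says whether pools shared animals. Both mature groups carried lane label 8 only, so that lane and maturation are partly confounded. The lane label is no sequencing run, since 5 pairs of index and lane label were used by more than 1 library. The summed level of 7 maturation markers such as Ccr7 and Fscn1 was 17868 to 60820 in the immature samples and 421134 to 620137 in the mature ones. The list holds Ccr7 and Esam, the genes of the proteins used for sorting, so that this separation is not independent of the sort. The summed level of 6 cDC1 markers was at most 5156 in the immature cDC2 samples, 14300 to 22358 in the mature cDC2 samples and at least 40321 in every cDC1 sample. From immature to mature thymic cDC2, the means of Irf8 (2467 to 13787) and Batf3 (648 to 4532) were higher, while those of Xcr1 (235 to 18.9), Clec9a (351 to 36.0), Cadm1 (181 to 100.9) and Tlr3 (347 to 31.5) were lower. The summed level of 6 cDC2 markers was 40500 to 49251 in the immature cDC2 samples and at most 3608 in any cDC1 sample. In mature thymic cDC2 it was 16188, 17622 and 13928, each below the cDC1 marker sum of the same sample (18862, 22358 and 14300).

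Of the 10 genes, 9 reached a normalized read count of 10 in at least 3 samples and were tested. The exception was Ptges (ENSMUSG00000050737, chromosome 2 from 30889471 to 30929863 on the minus strand), the inducible prostaglandin E2 synthase, which had at most 5 reads in any sample and 0 reads in each of the 4 immature thymic cDC1 samples. Gene positions are those of GENCODE M21 on mm10, and the levels of the 10 genes by sample are plotted on a log axis.

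**Figure D1:**
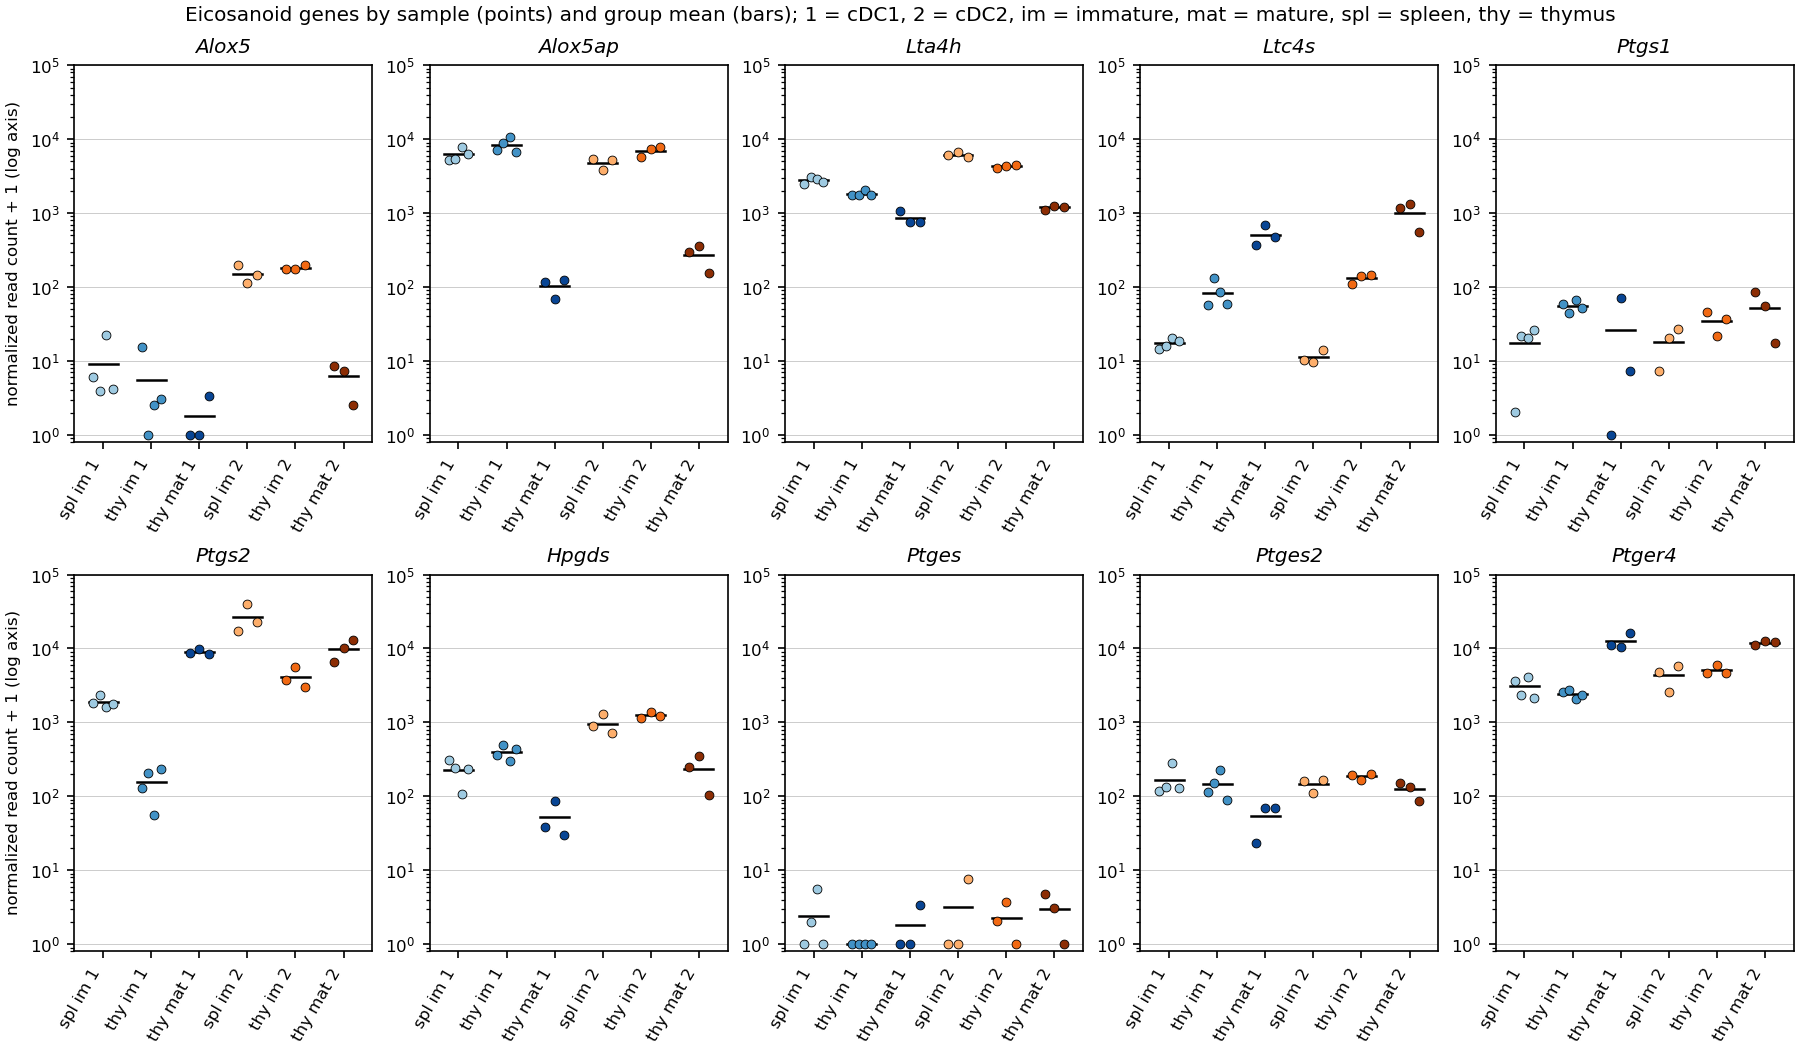
Normalized read count plus 1 (log axis) of the 10 genes in each of the 20 samples (points), with the group mean (bar), in the 6 groups. Alox5ap lies lowest in both mature groups, where Ltc4s and Ptger4 lie highest, and Ptges stays at the bottom of the axis in every group.

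The windows of 250 bases before the transcription start are shown for 4 genes, Ptgs2 and Ptger4, which rose in both mature subsets, and Alox5 and Lta4h, which were higher in immature cDC2 than in immature cDC1. They are RefSeq sequences of GRCm38.p6 (mm10), written in the direction of transcription, at chr1:150099781-150100030 (plus strand), chr15:5244188-5244437 (minus strand), chr6:116461179-116461428 (minus strand) and chr10:93453146-93453395 (plus strand). RefSeq promoters were matched by symbol for 9 of the 10 genes, all but Alox5ap. Capitals mark a GC box (GGGCGG) or a core that the ETS factor PU.1 can bind (GAGGAA), on either strand, so that CCGCCC and TTCCTC mark the reverse strand.
Ptgs2: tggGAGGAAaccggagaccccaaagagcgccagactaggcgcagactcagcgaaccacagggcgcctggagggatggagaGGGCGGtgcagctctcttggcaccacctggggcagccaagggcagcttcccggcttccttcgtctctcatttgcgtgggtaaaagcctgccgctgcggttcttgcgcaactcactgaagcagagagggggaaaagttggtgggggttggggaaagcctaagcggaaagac
Ptger4: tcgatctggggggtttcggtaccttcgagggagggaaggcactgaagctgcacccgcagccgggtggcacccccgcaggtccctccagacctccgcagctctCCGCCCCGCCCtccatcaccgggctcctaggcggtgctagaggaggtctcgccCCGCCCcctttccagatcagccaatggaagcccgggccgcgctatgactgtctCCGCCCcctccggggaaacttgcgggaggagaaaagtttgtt
Alox5: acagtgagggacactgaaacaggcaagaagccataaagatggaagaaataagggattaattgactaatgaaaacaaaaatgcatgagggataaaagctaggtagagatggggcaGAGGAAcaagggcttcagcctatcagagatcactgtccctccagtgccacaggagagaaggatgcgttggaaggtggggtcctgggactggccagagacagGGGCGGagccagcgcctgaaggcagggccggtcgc
Lta4h: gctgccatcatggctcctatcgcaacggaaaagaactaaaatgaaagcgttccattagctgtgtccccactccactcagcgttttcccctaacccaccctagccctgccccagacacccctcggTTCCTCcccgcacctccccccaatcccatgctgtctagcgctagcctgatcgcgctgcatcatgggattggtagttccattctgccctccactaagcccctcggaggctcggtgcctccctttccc

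The Ptger4 window held 4 GC boxes, 2 of them overlapping by 1 base, and the Ptgs2 and Alox5 windows held 1 each. GAGGAA occurred once each in the Ptgs2, Alox5 and Lta4h windows. Among the 9 windows, 4 held a GC box and 6 held GAGGAA, against 32.7% and 23.3% of all 32851 promoter windows of this length. By the GENCODE annotation, 178 bases of the Hpgds window and 84 of the Ltc4s window lie in exons of these genes. The E box CACGTG was present in 1 window, that of Ptges2, against 6.02% of all promoters. Neither TATAAA nor the NF-kB-type GGGNNNTTCC was present in any of the 9, against 12.4% and 4.65%. The motifs were chosen after these windows had been read, and a match describes letters, not a bound site.

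Of the leukotriene genes, Alox5ap and Lta4h fell and Ltc4s rose from immature to mature thymic cells in both subsets, and Alox5 fell in cDC2. Differences are log2 fold changes of the normalized read count plus 1, fitted for 14970 genes together with limma, with SE for the standard error, and a gene was called where the difference exceeded 2-fold with a Benjamini-Hochberg adjusted p under 0.1. Alox5ap (ENSMUSG00000060063, chromosome 5 from 149264767 to 149288153 on the plus strand) had 7031, 8747, 10619 and 6619 normalized reads in the 4 immature thymic cDC1 samples and 114, 67.6 and 125 in the 3 mature ones. In thymic cDC2 it went from 5725, 7262 and 7858 to 299, 363 and 155. The mature and immature samples did not overlap in either subset, and Alox5ap fell with log2 fold changes of -6.34 (SE 0.26, adjusted p = 6.56e-14 by limma) in cDC1 and -4.74 (SE 0.28, adjusted p = 4.22e-11 by limma) in cDC2. In sorted bulk samples, fewer cells carrying a transcript and less of it per cell cannot be told apart.

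Alox5 (ENSMUSG00000025701, chromosome 6 from 116410077 to 116461178 on the minus strand) reached no more than 21.2 normalized reads in any cDC1 sample. Immature thymic cDC1 had 14.4, 0, 1.56 and 2.02 normalized reads and mature thymic cDC1 0, 0 and 2.40, the latter from 0 to 3 reads per sample, so that no fold is given there. Immature thymic cDC2 held 172, 176 and 198, and mature thymic cDC2 held 7.68, 6.26 and 1.57. The cDC2 groups did not overlap, and Alox5 fell with a log2 fold change of -5.07 (SE 0.83, adjusted p = 4.19e-05 by limma). In cDC1 the fitted change did not pass the test (adjusted p = 0.224 by limma).

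Lta4h (ENSMUSG00000015889, chromosome 10 from 93453411 to 93484875 on the plus strand), the hydrolase that makes leukotriene B4, was lower in mature cells by a smaller margin. It had 1749, 1761, 2074 and 1769 normalized reads in immature and 1071, 761 and 752 in mature thymic cDC1, and 4064, 4369.8 and 4422 in immature and 1115, 1231 and 1225 in mature thymic cDC2. No mature sample reached an immature one, with log2 fold changes of -1.11 (SE 0.13, adjusted p = 3.92e-07 by limma) and -1.85 (SE 0.14, adjusted p = 1.48e-09 by limma). Ltc4s (ENSMUSG00000020377, chromosome 11 from 50236461 to 50238616 on the minus strand), the glutathione-conjugating synthase, went the other way, from 56.6, 132, 84.3 and 58.6 to 374, 681 and 479 in cDC1 and from 108, 139 and 143 to 1161, 1312 and 550.2 in cDC2. On the log2 scale it rose by 2.65 (SE 0.36, adjusted p = 2.09e-06 by limma) and 2.86 (SE 0.38, adjusted p = 3.29e-06 by limma). An antisense gene, Gm26542, shares 268 exonic bases with it and had a highest value of 79.1, and the strand setting of the read counting is not given in the sources used here.

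Of the cyclooxygenase genes, the inducible Ptgs2 (ENSMUSG00000032487, chromosome 1 from 150100031 to 150108227 on the plus strand) had the higher group mean per kilobase in each group. It had 128, 208, 54.6 and 233 normalized reads in immature thymic cDC1 and 8581, 9882 and 8346 in mature thymic cDC1. Immature thymic cDC2 held 3708, 5523 and 3037, and mature thymic cDC2 held 6508, 10189.6 and 12986. The mature samples lay above the immature ones in both subsets, and Ptgs2 rose with log2 fold changes of 6.03 (SE 0.38, adjusted p = 3.18e-11 by limma) and 1.26 (SE 0.40, adjusted p = 0.0142 by limma). The values of the mature subsets overlapped, whereas every immature cDC2 sample lay above every immature cDC1 sample.

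The constitutive Ptgs1 (ENSMUSG00000047250, chromosome 2 from 36230426 to 36252272 on the plus strand) was low and variable, at no more than 83.7 normalized reads in any sample. Mature thymic cDC1 held 0, 69.3 and 6.40, spanning the 57.4, 43.3, 65.5 and 51.5 of immature thymic cDC1. Its fitted change of -2.77 (SE 1.05, adjusted p = 0.0285 by limma) passed the test, but was lost without mature thymic cDC1 replicate 1 (-1.27, adjusted p = 0.281 by limma), was -4.33 without replicate 2, and was not called by edgeR (-1.16, adjusted p = 0.287) or DESeq2 (-1.09, adjusted p = 0.283). In cDC2 the difference was 0.39 (SE 1.12, adjusted p = 0.812 by limma).

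The synthases that act on prostaglandin H2 were lower in mature cells or did not pass the test. Hpgds (ENSMUSG00000029919, chromosome 6 from 65117293 to 65144908 on the minus strand), which makes prostaglandin D2 in haematopoietic cells, had 366, 501, 298 and 438 normalized reads in immature and 36.9, 86.7 and 28.8 in mature thymic cDC1. In cDC2 it had 1159, 1385 and 1203 in immature and 252, 350.1 and 104 in mature cells. It fell without overlap in both subsets, with log2 fold changes of -3.09 (SE 0.41, adjusted p = 1.84e-06 by limma) and -2.57 (SE 0.44, adjusted p = 6.54e-05 by limma). Ptges2 (ENSMUSG00000026820, chromosome 2 from 32395896 to 32405772 on the plus strand), a membrane-associated prostaglandin E2 synthase, went from 115, 149.9, 226 and 88.9 to 22.1, 67.6 and 68.0 in cDC1, a log2 fold change of -1.52 (SE 0.40, adjusted p = 0.00297 by limma). Without mature thymic cDC1 replicate 1 this was -0.999, just short of the call, and in cDC2 the difference was -0.63 (SE 0.43, adjusted p = 0.248 by limma).

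Ptger4 (ENSMUSG00000039942, chromosome 15 from 5206661 to 5244187 on the minus strand) encodes the EP4 receptor. It had 2579.9, 2738, 2089 and 2338 normalized reads in immature and 11173, 10514 and 16007 in mature thymic cDC1. In cDC2 it had 4602, 5946 and 4598 in immature and 10965, 12722 and 12165 in mature cells. All mature samples lay above all immature ones, and the rise was 2.35 (SE 0.25, adjusted p = 7.83e-08 by limma) in cDC1 and 1.25 (SE 0.27, adjusted p = 5.92e-04 by limma) in cDC2 on the log2 scale. Exons of Ttc33 and of a pseudogene, Gm15937, overlap Ptger4 on the opposite strand by 82 and 1015 bases, with highest values of 691 and 8.63.

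At maturation of thymic cDC1, 3 of the 9 tested genes were higher (Ltc4s, Ptgs2 and Ptger4), beside 21.3% of all tested genes, and 5 were lower (Alox5ap, Lta4h, Ptgs1, Hpgds and Ptges2), beside 24.5%. In cDC2 the same 3 genes were higher, beside 18.6% of all, and 4 were lower (Alox5, Alox5ap, Lta4h and Hpgds), beside 17.0%. The median log2 fold change over the 9 genes was -1.13 in cDC1 and -0.63 in cDC2, and over all tested genes -0.04 and 0.04. Markers of thymocytes were higher in mature samples and those of monocytes and plasmacytoid cells were lower, while those of macrophages had no single direction. The summed level of 6 thymocyte markers, which include Cd3e and Rag1, was 69.4 to 153 in the immature thymic samples and 502 to 1030 in the mature ones. That of 4 monocyte markers, mostly Ccr2 in cDC2, was 10868 to 12678 in immature and 310.02 to 998 in mature thymic cDC2. In thymic cDC1 it was 1326 to 2314 in immature and 72.8 to 199.9 in mature samples. That of 4 plasmacytoid markers was 1331 to 1843 in immature and 192 to 402 in mature thymic cDC2, and 1111 to 1566 and 191 to 291 in cDC1. The macrophage sum was 7556 to 10569 in immature thymic cDC2 and 13884, 14753 and 2261 in mature thymic cDC2. That of B cells was 169 to 239.9 in immature and 240.2 to 401 in mature thymic cDC2. In thymic cDC1 both sums overlapped between immature and mature samples. The part of these cells in the changes was not tested. With lane label 8 alone, which does not hold the run constant, the calls at maturation numbered 8 in cDC1 and 7 in cDC2, as in all samples and as with 1 sample per pool (18 samples).

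**Figure D2:**
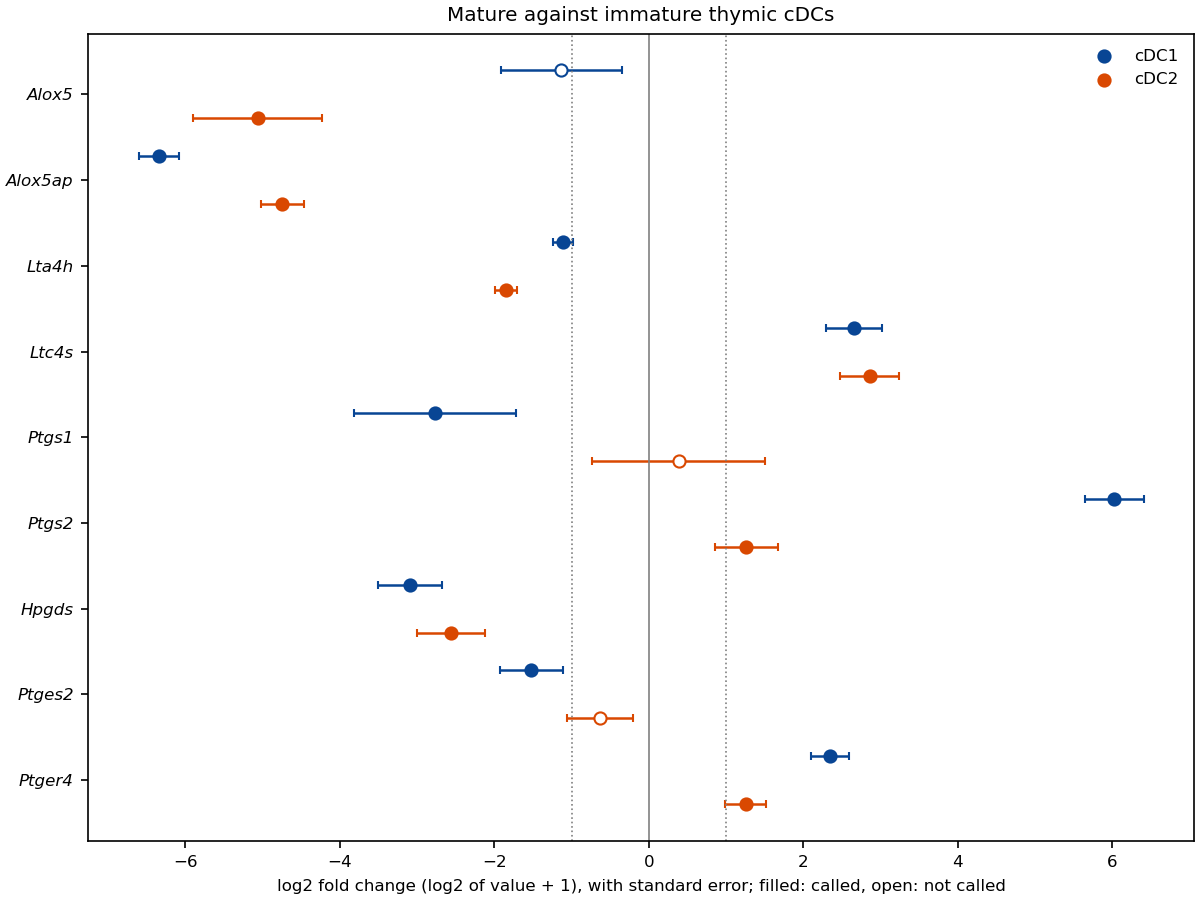
Log2 fold change of mature against immature thymic cells (horizontal axis, log2 of value plus 1) with its standard error, for the 9 tested genes in cDC1 (blue) and cDC2 (orange). Filled points were called, open points were not, and dotted lines mark 2-fold. Ptgs2 is at 6.03 in cDC1 and 1.26 in cDC2.

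The size of the change at maturation was compared between the subsets as the cDC2 effect minus the cDC1 effect, which gave 1 gene with a positive difference, beside 8.34% of all tested genes, and 3 with a negative one, beside 5.25%. The positive one was Alox5ap at 1.60 (SE 0.38, adjusted p = 0.00823 by limma), its decrease being the smaller in cDC2. Ptgs2 had a difference of -4.76 (SE 0.55, adjusted p = 8.40e-06 by limma), the rise being the larger in cDC1. That of Alox5, which had at most 17 reads in any thymic cDC1 sample, was -3.93 (SE 1.14, adjusted p = 0.027 by limma). It was not called by edgeR (-3.15, adjusted p = 0.292) or DESeq2 (-3.09, adjusted p = 0.136) or with a pseudocount of 0.1 (-3.02, adjusted p = 0.350 by limma). That of Ptger4 was -1.10 (SE 0.36, adjusted p = 0.0529 by limma), and was not called without immature thymic cDC2 replicate 2 (-0.97), mature thymic cDC2 replicate 1 (-1.04) or mature thymic cDC1 replicate 3 (-0.91). For Lta4h the difference of -0.74 (SE 0.19, adjusted p = 0.0144 by limma) was below 2-fold, and for Ltc4s, with 0.21, the 95% interval was -0.82 to 1.23. The median difference over the 9 genes was 0.21 and over all tested genes 0.11.

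Among immature cells, cDC2 held more of several of these transcripts than cDC1. In the spleen 4 of the 9 tested genes were higher in cDC2, beside 9.93% of all tested genes, and none was lower, beside 6.70%. In the immature thymus 5 were higher, beside 11.0%, and none was lower, beside 5.42%. Alox5 had 5.15, 2.96, 21.2 and 3.20 normalized reads in splenic cDC1 and 195, 112 and 147 in splenic cDC2, a log2 fold change of 4.43 (SE 0.78, adjusted p = 1.93e-04 by limma). In the immature thymus it was 5.79 (SE 0.78, adjusted p = 9.18e-06 by limma). Alox5ap, whose product works with that of Alox5, differed by -0.36 in the spleen (95% interval -0.87 to 0.15) and -0.24 in the immature thymus (-0.75 to 0.28), neither of which passed the test.

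Ptgs2 stood in splenic cDC2 at 17217, 40284 and 22591 normalized reads against 1823, 2365, 1597 and 1789 in splenic cDC1. Its log2 fold change between the subsets was 3.74 (SE 0.38, adjusted p = 1.88e-07 by limma) in the spleen and 4.86 (SE 0.38, adjusted p = 5.57e-09 by limma) in the immature thymus. Lta4h, at 6047, 6653 and 5674 against 2475, 3109, 2875 and 2673 in the spleen, was 1.14 and 1.22 higher on the log2 scale. Ptger4 was higher in cDC2 of the immature thymus by 1.05 (SE 0.25, adjusted p = 0.00352 by limma), just past 2-fold, and not without immature thymic cDC2 replicate 2 (0.92) or immature thymic cDC1 replicate 3 (0.98). In the spleen its difference was 0.50. The median over the 9 genes was 0.50 in the spleen and 1.05 in the immature thymus, and over all genes 0.02 and 0.01.

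Hpgds was higher in cDC2 in all 3 settings. Splenic cDC1 had 313, 243, 106 and 235 normalized reads and splenic cDC2 881, 1301 and 707. The log2 fold changes were 2.15 (SE 0.41, adjusted p = 4.42e-04 by limma) in the spleen, 1.66 (SE 0.41, adjusted p = 0.00503 by limma) in the immature thymus and 2.18 (SE 0.44, adjusted p = 0.00106 by limma) in the mature thymus. Macrophage markers were also higher in cDC2, and their part in the higher values of Hpgds, Alox5 and the other genes in cDC2 was not tested. The summed level of the 9 macrophage markers, which include Adgre1, C1qa and Mertk, was 86.7 to 549 in the cDC1 samples, 5197 to 10569 in the immature cDC2 samples and 2261 to 14753 in the mature ones, with Vsig4 at 0 in every sample. F4/80, the protein of Adgre1, was an exclusion marker of cDCs of both subsets in the study, although the labels list it for cDC1 only. Mast cells also express Hpgds. Of 7 mast cell markers, Cpa3, Tpsb2, Cma1, Ms4a2 and Mcpt4 had at most 4 reads in any sample, Kit had a mean of 8743 normalized reads in splenic and 4046 in immature thymic cDC2, against 8010 and 6263 in cDC1, and Hdc had 189 and 31.4 against 126 and 40.4. Of 4 basophil markers, Il4 was at 0 in every sample and Mcpt8 and Prss34 had at most 4 reads, while Cd200r3 had 21.8 to 28.1 normalized reads in immature thymic cDC2 and at most 12.5 in any other sample.

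Between the mature thymic subsets, 3 of the 9 genes were higher in cDC2 (Alox5ap, Hpgds and Ptges2), beside 14.6% of all tested genes, and none was lower, beside 4.36%. Alox5ap differed by 1.36 (SE 0.28, adjusted p = 0.00122 by limma) and Ptges2 by 1.33 (SE 0.43, adjusted p = 0.0304 by limma). The Ptges2 difference was not called without mature thymic cDC1 replicate 1 (0.81), without mature thymic cDC2 replicate 1 (1.18) or with the mature groups fitted alone (1.33). Ptgs2 (95% interval -0.70 to 0.89) and Ptger4 (-0.57 to 0.47) did not pass the test there. Mature thymic cDC2 replicate 3 held the lowest macrophage sum of its group, 2261 against 13884 and 14753, and also the lowest values of Alox5, Alox5ap, Ltc4s, Ptgs1, Hpgds and Ptges2. Its sums of general cDC markers (200761 against 339788 and 312553) and of maturation markers (421134 against 556336 and 585659) were the lowest too. So were its monocyte and B cell sums, but not its thymocyte, plasmacytoid and mast cell sums. Its Ptgs2 value (12986) was the highest of the group, and its Lta4h and Ptger4 values lay between those of the other samples. Without this replicate 6 genes were called, with Alox5 (2.40), Ltc4s (1.31) and Ptgs1 (3.09) added, and Hpgds stood at 2.69. Without mature thymic cDC1 replicate 2 the number was 5. The median was 1.33 over the 9 genes and 0.14 over all.

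**Figure D3:**
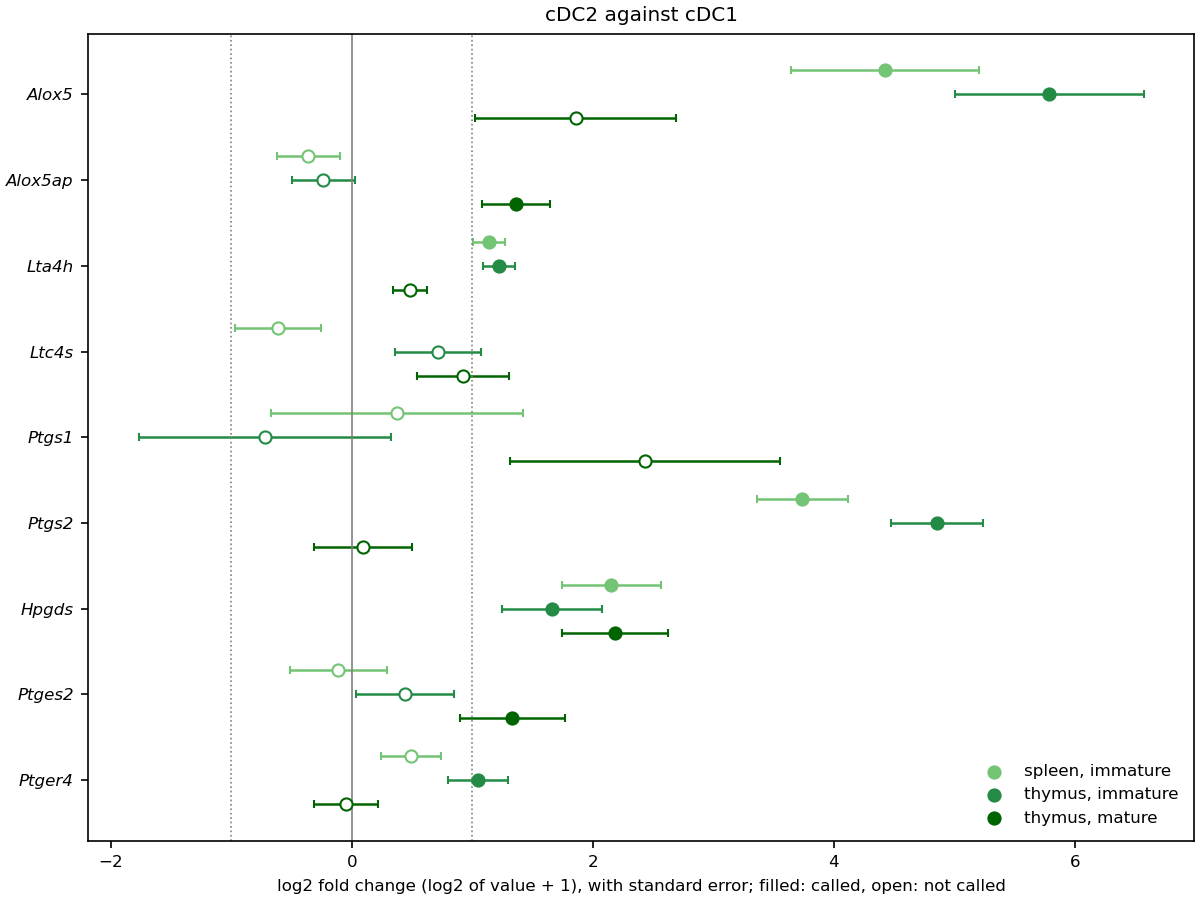
Log2 fold change of cDC2 against cDC1 (horizontal axis, log2 of value plus 1) with its standard error, for the 9 tested genes among immature splenic, immature thymic and mature thymic cells. Filled points were called, open points were not, and dotted lines mark 2-fold. Ptgs2 is at 3.74, 4.86 and 0.09, and Hpgds is past 2-fold in all 3.

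Thymic and splenic immature cells differed in Ltc4s and Ptgs2, in opposite directions and in both subsets. Ltc4s had 13.4, 14.8, 19.4 and 17.3 normalized reads in splenic cDC1, below every thymic sample, and 9.15, 8.75 and 13 in splenic cDC2. It was higher in the thymus by 2.21 (SE 0.33, adjusted p = 6.66e-05 by limma) in cDC1 and 3.54 (SE 0.38, adjusted p = 1.01e-06 by limma) in cDC2. Ptgs2 was lower in the thymus, at -3.78 (SE 0.35, adjusted p = 1.62e-07 by limma) and -2.66 (SE 0.40, adjusted p = 6.63e-05 by limma). In each subset these made 1 of 9 genes higher, beside 4.26% of all tested genes in cDC1 and 8.30% in cDC2, and 1 lower, beside 4.52% and 5.87%. The marker sums of other cell types also differed between the tissues, and their part was not tested. In cDC2 the monocyte sum was 1995 to 3004 in the spleen and 10868 to 12678 in the thymus, and the plasmacytoid sum 199.5 to 315 and 1331 to 1843. In cDC1 the B cell sum was 566 to 984 in the spleen and 106 to 139 in the thymus, and the thymocyte sum 3.69 to 11.8 and 85.8 to 139. In cDC2 these were 599.7 to 637 and 169 to 239.9 for B cells, and 21.2 to 70.5 and 69.4 to 153 for thymocytes. Lta4h was lower in all thymic than in all splenic samples of the same subset, by less than 2-fold, at -0.60 (SE 0.12, adjusted p = 0.00175 by limma) and -0.51 (SE 0.14, adjusted p = 0.0126 by limma).

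For Ptger4 the intervals of the tissue difference were -0.75 to 0.16 in cDC1 and -0.26 to 0.78 in cDC2, and for Alox5ap -0.07 to 0.88 and -0.02 to 1.07. The median over the 9 genes was -0.18 in cDC1 and 0.37 in cDC2, beside 0.00 and 0.02 over all genes. The tissue effect did not pass the test of a difference between the subsets for any of the 9 genes, beside 3.27% of all tested genes with a positive and 1.71% with a negative difference. That count was 0 by limma, edgeR and DESeq2, and 1 gene, Ltc4s, had an unadjusted limma p under 0.05, with a difference of 1.33 (SE 0.51, adjusted p = 0.177 by limma). Without immature thymic cDC1 replicate 2 Ltc4s was called at 1.58. The median difference over the 9 genes was 0.55 and over all genes 0.02.

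**Figure D4:**
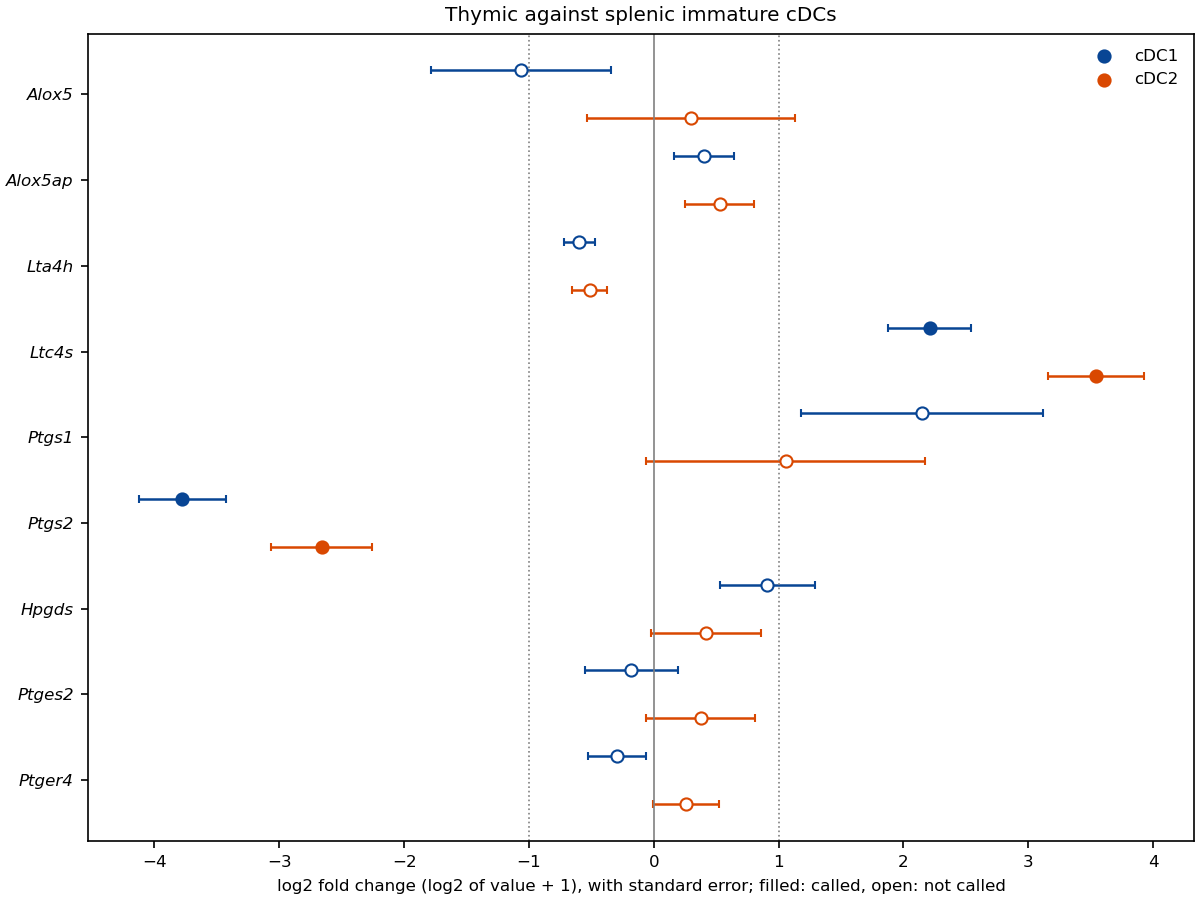
Log2 fold change of thymic against splenic immature cells (horizontal axis, log2 of value plus 1) with its standard error, for the 9 tested genes in cDC1 (blue) and cDC2 (orange). Filled points were called, open points were not, and dotted lines mark 2-fold. Ltc4s lies to the right at 2.21 and 3.54, and Ptgs2 to the left at -3.78 and -2.66.

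Each gene had its own order of groups. Ltc4s ran from mature thymic cDC2 (1008 ± 403, SD, n = 3) and mature thymic cDC1 (511 ± 156, SD, n = 3), which overlapped, through both immature thymic groups, which also overlapped, to splenic cDC1 and then splenic cDC2. Ptgs2 was highest in splenic cDC2 (26697 ± 12069, SD, n = 3), followed by the overlapping mature groups, immature thymic cDC2, splenic cDC1 and immature thymic cDC1 (156 ± 81.3, SD, n = 4). Ptger4 stood apart in the mature groups, at 12565 ± 2999 (SD, n = 3) for cDC1 and 11951 ± 898 (SD, n = 3) for cDC2, and each immature group overlapped the next. Alox5ap was lowest in mature thymic cDC1 (102 ± 30.4, SD, n = 3) and then mature thymic cDC2 (272 ± 107, SD, n = 3), which did not overlap. For Lta4h no group overlapped its neighbour, from splenic cDC2 (6125 ± 494, SD, n = 3) down to mature thymic cDC1 (861 ± 182, SD, n = 3).

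Levels of different genes were compared per kilobase of exon. In immature thymic cDC1, Alox5ap had a mean of 5813 normalized reads per kilobase and Alox5 1.09. In immature thymic cDC2 the same pair stood at 4893 and 44.3. Of the leukotriene A4 enzymes, Lta4h exceeded Ltc4s in immature thymic cDC2 (702 against 128 reads per kilobase), and Ltc4s exceeded Lta4h in mature thymic cDC2 (994 against 195) and cDC1 (504 against 141). The length of a gene was that of all its annotated exons together, 6102 bases for Lta4h and 1014 for Ltc4s. Without division by length, Lta4h had the higher mean in mature thymic cDC2 (1190 against 1008) and in mature thymic cDC1 (861 against 511). The order in mature cells therefore depended on the length used. In mature thymic cDC1, Ptgs2 (1951) and Ptger4 (1890.0) were the highest of the 10 per kilobase, while Hpgds was at 7.90 and Ptges2 at 10.4.

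For each tested member, the genes with the most similar profile were found by Pearson correlation of log2 values over the 20 samples, which share their groups and therefore do not act as independent points. For Alox5ap these were Mcm5, Mcm2 and Cdca7, with r of 0.991, 0.990 and 0.990. For Ltc4s the first was Mmp25 (0.982), for Ptger4 Shb (0.968), for Ptgs2 Arap2 (0.962), for Lta4h Neurl3 (0.974) and for Alox5 Trappc5 (0.954). Hpgds was most like Fry (0.941), Ptges2 like Smpd1 (0.952) and Ptgs1 like Tnfsf13b, with a lower r of 0.825. Between members, r was -0.866 for Alox5ap and Ptger4 and 0.479 for Alox5 and Alox5ap.

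Of 66 other genes of the pathway, listed by function, 46 were tested. At maturation of thymic cDC1, 7 of the 46 were higher and 22 lower, and in cDC2 8 were higher and 19 lower, beside the same shares of all genes as above. Their median log2 fold change was -1.01 in cDC1 and -0.43 in cDC2. Among the 12 tested genes that release arachidonate, Pla2g4f, a cytosolic phospholipase, went from 5.81 to 1864 normalized reads in cDC1 and from 91.7 to 3846 in cDC2, rising by 8.26 and 5.43 on the log2 scale. Pla2g16, a phospholipase also known as an acyltransferase, rose by 4.37 (SE 0.21, adjusted p = 5.02e-13 by limma) in cDC1 and 5.18 (SE 0.22, adjusted p = 4.85e-13 by limma) in cDC2, to 13519.6 ± 2823 (SD, n = 3) in mature cDC1.

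None of the tested receptors beside Ptger4 was called higher at maturation. Of the 5 tested prostanoid receptors beside Ptger4, 3 fell and none rose in each subset, and of the 4 tested receptors of leukotrienes and lipoxins, 3 fell and none rose in each. Of all tested genes, 24.5% were lower and 21.3% higher in cDC1, and 17.0% were lower and 18.6% higher in cDC2. With lists this short, the lack of higher calls cannot be read as a trait of the receptors. Ptger3, another prostaglandin E2 receptor, had 169 to 192 normalized reads in immature and 6.28 to 11.1 in mature thymic cDC2, and 0 in each mature cDC1 sample. Cysltr1, a receptor of cysteinyl leukotrienes, had 1215 to 1588 in immature and 48.4 to 55.7 in mature thymic cDC2, and 234 to 441 and 0 to 4.00 in cDC1. Ltb4r1, the high-affinity leukotriene B4 receptor, had 161 to 219.9 in immature thymic cDC2 and 0 to 4.18 in mature thymic cDC2. Tbxas1, the thromboxane synthase, fell in both subsets, from 768 to 9.02 in cDC1 and from 1387 to 100.3 in cDC2. Ptges3, the cytosolic prostaglandin E2 synthase and a cochaperone, was not called at maturation in either subset, at -0.13 and -0.56.

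For the difference between the maturation effects, the 46 genes gave 7 positive calls, beside 8.34% of all tested genes, and 6 negative ones, beside 5.25%, among them Ptger2 at 5.73 (SE 1.23, adjusted p = 0.00381 by limma) and Ltb4r1 at -4.76. Ptger2, a further prostaglandin E2 receptor, had 102 to 170.1 normalized reads in immature and 0 to 46.8 in mature thymic cDC1, and 1.34 to 7.47 in immature and 9.21 to 16.5 in mature thymic cDC2. Its mature cDC1 values thus spanned those of mature cDC2, and its difference rests largely on low values. Single genes were followed through the alternatives for the members only, so that these calls were not checked in that way.

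Between tissues, 1 of the 46 was higher in thymic cDC1, beside 4.26% of all tested genes, and 7 were lower, beside 4.52%. In thymic cDC2 10 were higher, beside 8.30%, and 8 lower, beside 5.87%. Ptgis, the prostacyclin synthase, was 338 to 594 normalized reads in splenic cDC1 and 6.06 to 9.36 in immature thymic cDC1, a log2 fold change of -5.63 (SE 0.47, adjusted p = 3.45e-08 by limma). Hpgd, which breaks down prostaglandins, was lower in the thymus, going from 339 to 56.3 between splenic and thymic cDC1 and from 1644 to 328 in cDC2. Alox15, another arachidonate lipoxygenase, had 0 to 9.37 in splenic and 227 to 405 in thymic immature cDC2. The tissue effects differed between the subsets for 10 of the 46, all positive, beside 3.27% of all tested genes. Between immature subsets, 11 were higher and 9 lower in cDC2 of the spleen, beside 9.93% and 6.70% of all, and 16 higher and 5 lower in cDC2 of the thymus, beside 11.0% and 5.42%. Ptgir, the prostacyclin receptor, had 0 to 5.07 in immature thymic cDC1 and 273 to 309 in immature thymic cDC2. In the mature thymus 17 were higher in cDC2, beside 14.6% of all tested genes, and 2 lower, beside 4.36%, Pla2g16 among the latter, with 4793 against 13519.6 in cDC1.

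Of the exporters of the products, Abcc4 was called at maturation and Abcc1 stayed under 2-fold. Abcc1, which exports leukotriene C4, went from 2969 to 5294 normalized reads in cDC1, at 0.84 (SE 0.14, adjusted p = 2.46e-05 by limma), and differed by 0.42 (SE 0.15, adjusted p = 0.024 by limma) in cDC2. Abcc4, an exporter of prostaglandin E2, fell in both, at -2.09 (SE 0.16, adjusted p = 5.48e-10 by limma) and -1.52 (SE 0.17, adjusted p = 3.13e-07 by limma). Akr1b3, an aldose reductase that can also make prostaglandin F2alpha, fell in both, at -2.41 (SE 0.16, adjusted p = 7.16e-11 by limma) and -1.09 (SE 0.17, adjusted p = 2.40e-05 by limma). Ggt5, which cleaves leukotriene C4 to leukotriene D4, had 276 to 368 in immature and 7.06 to 71.4 in mature thymic cDC2 and 1281 to 1659 in splenic cDC2. Cyp4f16 of the family that inactivates leukotriene B4 had 8707 to 9839 in splenic, 2303 to 2576 in immature thymic and 213 to 298 in mature thymic cDC2.

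**Figure D5:**
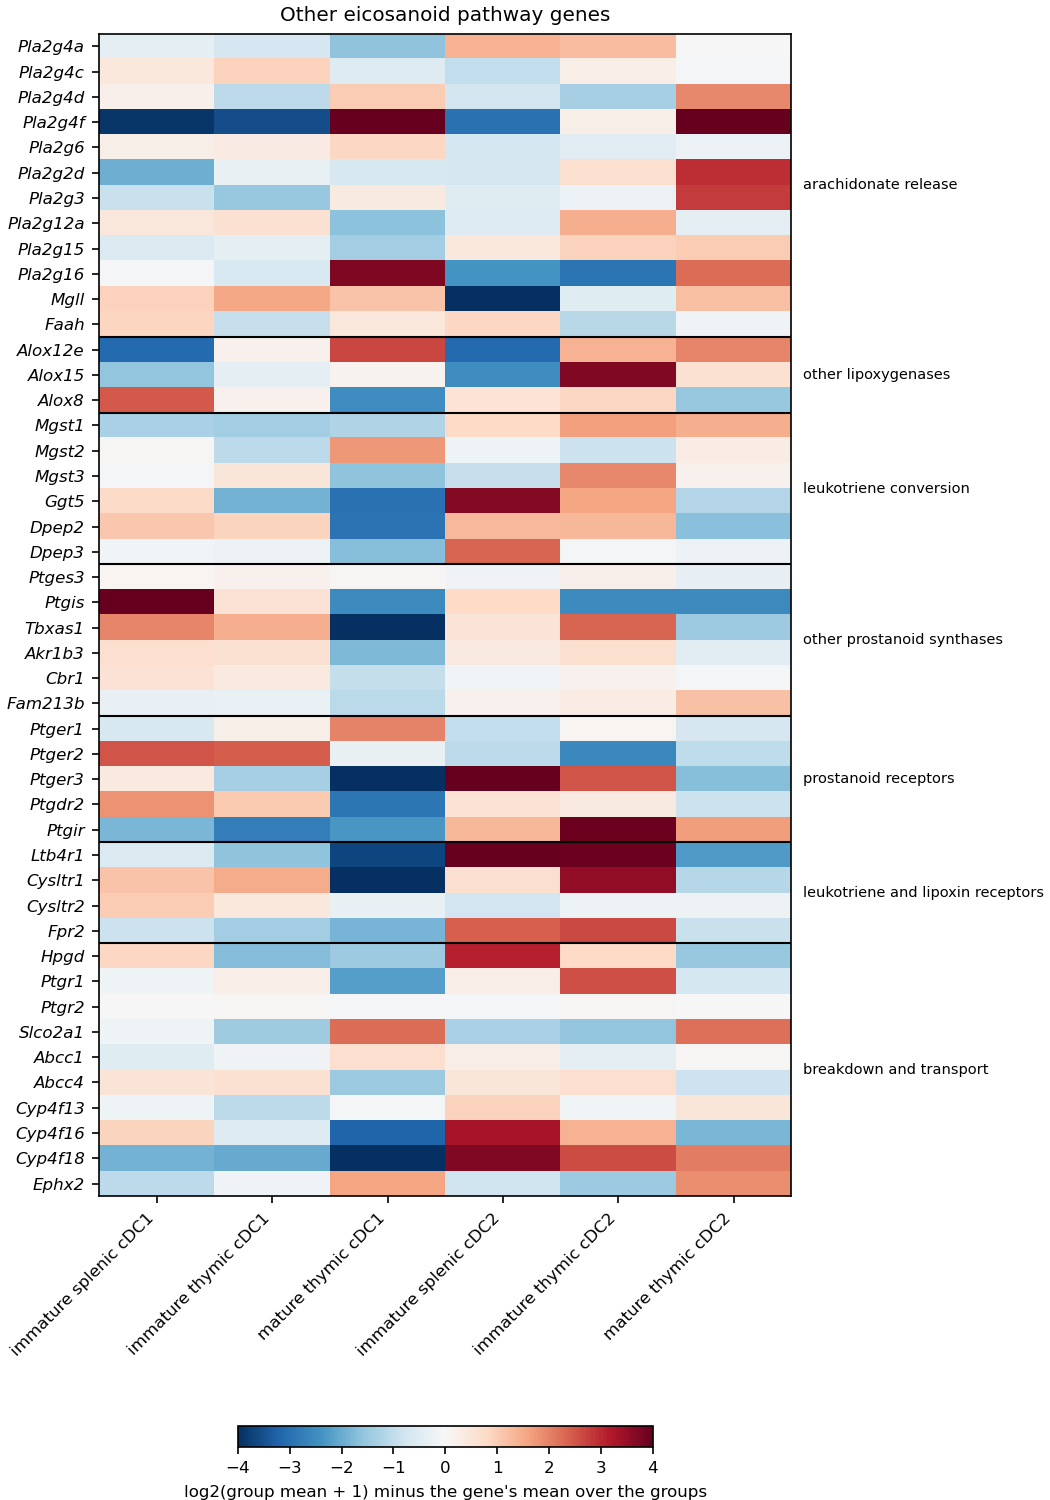
Log2 of the group mean plus 1, minus the gene's mean over the 6 groups (colour), for the 46 tested genes of the pathway list, grouped by function, in the 6 groups (columns). Pla2g4f and Pla2g16 are red in both mature columns, and Ptger3, Ltb4r1 and Cysltr1 are blue there.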

How the data were processed

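Libraries were prepared from poly-A RNA with a stranded kit and sequenced as pairs. The authors removed adaptors and low-quality bases, mapped the reads to mm10 by STAR (version 2.6) and counted reads over Ensembl genes by HTSeq-count, with DESeq2 (version 1.24.0) for normalization. Per the labels and the deposited values, each value is a signal, a read count divided by 1 size factor per library. Whole reads were recovered from 100% of the values (tolerance 0.01), with 1 read worth 0.625 to 1.84 normalized counts.

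Values were log2-transformed after adding a pseudocount of 1 and modelled in limma (version 3.58.1, R 4.3.3; lmFit and eBayes with a trend, 1 mean for each of the 6 groups) for 14970 genes, those at 10 or more in 3 or more of the 20 samples. Calls needed a Benjamini-Hochberg adjusted p below 0.1 over all these genes together with a log2 fold change beyond 1 in size. The paper's own test is a count model, run here as an alternative with DESeq2 (version 1.42.0) and edgeR (version 4.0.16) on the recovered reads. In all, 32 alternatives were run, 20 of them leaving out 1 sample. Replicates are separate libraries, and p values measure the spread between them. In immature splenic cDC1 and immature thymic cDC1 some samples shared a pool, so that part of the spread there is within a pool. Depth was 14266867 to 40119669 reads per library, and precision from depth covers counting error only.

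The members, the pathway list of 66 genes, the marker lists and the tests were chosen with earlier results of these data known. Pathway genes could be named if called with a group mean of at least 100, up to 4 by size of change per comparison, or with a group mean of at least 1000. Sequences came from RefSeq.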

Additional observations from a re-analysis of the deposited data

Results flagged for a closer look

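Among the 18 pairs of a tested gene and a group of 4 samples, 4 had 1 sample that stood apart from the other samples of its group. The rule flags about 1 in 20 independent pairs by chance. These pairs share their samples and are not independent, so that the rate gives no expected count here. They were the highest sample of Alox5 in immature splenic cDC1 (21.2 normalized reads) and in immature thymic cDC1 (14.4), of Lta4h in immature thymic cDC1 (2074) and of Ptges2 in immature splenic cDC1 (282). Both flags in immature splenic cDC1 were replicate 3. Its reads differed most from its group (chi-square over degrees of freedom 100 to 176, at most 54.4 between the other libraries). Its sum of general cDC markers was 813521, against 419964 to 468139 in the other samples of the group. In immature thymic cDC1 the flags were replicate 1 for Alox5 and replicate 3 for Lta4h. Alox5 rested on at most 23 reads in immature splenic and immature thymic cDC1.

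The change at maturation differed between cDC2 and cDC1 by limma's interaction term for 4 genes. The difference of log2 fold changes was -3.93 for Alox5, 1.60 for Alox5ap, -4.76 for Ptgs2 and -1.10 for Ptger4. Ptgs2 and Alox5ap kept their call in all 32 alternatives, while Alox5 and Ptger4 each lost it in 3. Alox5 had at most 17 reads in any thymic cDC1 sample, so that its change there rests on values near 0.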

How the results depend on the processing

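Of 2562 log2 fold changes of the tested genes recomputed over the 32 alternatives, 2508 kept their direction and side of the threshold, 15 lost the call, 22 gained it and 17 changed sign. Those that changed sign were values that had not been called. With lane label 8 alone, Ptger4 between tissues in cDC2 was -0.16. For Ptgs1 between the subsets of the spleen, edgeR gave -2.11e-04 and 1 sample per pool -0.32. Leaving out 1 sample gave ranges of -0.10 to 1.04 for Ptgs1 at maturation of cDC2, -0.42 to 0.11 for Ptges2 and -0.086 to 0.50 for Ptger4 between tissues (cDC1 and cDC2), -0.50 to 0.93 for Ptgs1 and -0.24 to 0.17 for Ptges2 between the subsets of the spleen, and -0.13 to 0.37 for Ptgs2 and -0.16 to 0.14 for Ptger4 between the mature subsets. For the differences of effects they were -0.043 to 0.59 for Ltc4s (maturation) and -0.029 to 0.26 for Alox5ap (tissue).

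The number of members called was 1 in place of 2 for both tissue effects when a value of at least 10 was required in every sample, since Ltc4s then was not tested. Leaving out 1 sample gave 2 to 6 in place of 3 between the mature subsets, and 0 to 1 in place of 0 for the difference of tissue effects. The cause of the other changes was not tested.

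Deviations from the group mean were correlated between cDC1 and cDC2 samples of the same tissue. The correlations were -0.150 to 0.461 within a pool and -0.492 to 0.258 between pools. The correlation fitted for the pool as a block was 0.155. These few pairs cannot settle whether pool numbers pair the samples. With the pool as a replicate block, the numbers of members called were 8 and 7 at maturation of cDC1 and cDC2 and 4 for their difference, as without it. Over all genes, the filter on every sample left 10135 genes and called 4095, 3123, 580, 1083, 1308, 1086, 1128, 1183 and 436 in the 9 comparisons, each fewer than without it by over 1.5 times. Lane label 8 alone called 817 between tissues in cDC1, 1631 in the spleen, 1199 for the difference of maturation effects and 208 for that of tissue effects, and the mature groups fitted alone called 1767. Rescaling by TMM moved the median of all genes by at most 0.04. Genes with few reads, such as Ptges and, at 23 reads or fewer, Alox5 in cDC1, are limited by depth.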

Other observations

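Other cell type lists had the following summed levels. The 4 monocyte markers, among them Ly6c2 and Ccr2, ranged from 72.8 to 2893 in cDC1 samples and from 10868 to 12678 in immature thymic cDC2, the highest of any group. The 4 markers of plasmacytoid cells ranged from 191 to 1843, the 5 B cell markers from 106 to 984 and the 5 markers of platelets and megakaryocytes from 3.69 to 81.3. The 8 neutrophil markers reached at most 161, the 4 eosinophil markers 83.2 and the 4 basophil markers 28.1. The 7 mast cell markers summed to 743 to 9686, nearly all of it Kit.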
